A study of Mus musculus with 8 samples.

Results

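The inflammatory chemokines and their receptors were followed in stroke infarcts of aged mice as 38 genes of the 46078 gene identifiers counted, 24 of them ligands and 14 receptors. They were taken by name from a list of ligands and receptors, with no threshold on a measured value, and all 38 were matched by symbol. The infarcts came from wild type C57BL/6J mice that were 18 months old, all of them male per the methods of the study. Every animal had DH stroke, that is electrocoagulation of the distal middle cerebral artery followed by a period of hypoxia. Treatment began 1 week after stroke, when 4 animals were started on subcutaneous PBS (vehicle) and 4 on subcutaneous HPBCD at 4 g/kg, 3 times per week over 6 weeks. HPBCD, written HPβCD from here on, is 2-hydroxypropyl-β-cyclodextrin, a cyclic oligosaccharide whose cavity can hold cholesterol. Infarcts were found by eye, cut out by hand and taken at 7 weeks after stroke. The treatment groups share the stroke, the genotype, the age and the injections, and no unoperated tissue was analysed here, so the values compare treatments within infarcts and do not compare infarct with healthy brain.

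Chemokines are small secreted proteins that guide migrating leukocytes along gradients, and they act through receptors coupled to G proteins. CC ligands such as *Ccl2* draw mainly monocytes, T lymphocytes and eosinophils, CXC ligands such as *Cxcl5* draw neutrophils, and the ligands *Cxcl9* and *Cxcl10* are induced by interferon and draw activated T lymphocytes. Atypical receptors bind chemokines without classical signalling and remove, transport or present them. In brain after stroke these genes are known for recruiting blood leukocytes into injured tissue, with endothelium, microglia, macrophages and astrocytes among their sources.

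Libraries held 16.6 M to 32.9 M gene counts. Markers of the expected infarct tissue were present in all 8, with summed leukocyte markers at 975 to 1770 CPM (counts divided by the TMM-adjusted library size) in vehicle and 1536 to 2338 CPM in HPβCD infarcts. The 5 leukocyte markers went in both directions, with 3 log2 fold changes above 0 and 2, of *Ptprc* and *Coro1a*, below. By edgeR 0 were called and 3 were at an unadjusted p under 0.05, and DESeq2 called 2 higher. A pair of vehicle libraries stood apart: the summed CPM of 8 neuron markers reached 951 and 6026 in vehicle animals 1 and 3, and lay between 13.4 and 90.7 in the other 6. Summed fibroblast markers were 2332 to 6013 CPM in vehicle and 8650 to 9262 CPM in HPβCD infarcts. Summed B lymphocyte markers were 149 to 526 CPM in vehicle and 44.9 to 133 CPM in HPβCD infarcts. Of these 6, 3 were called lower by edgeR and 6 by DESeq2. Summed plasma cell markers were 1190 to 2642 and 326 to 563 CPM, with 1 of 6 called lower by edgeR and 3 by DESeq2. Most of the plasma cell sum in vehicle was *Jchain*, at 856 to 2179 CPM. Of the 6 plasma cell markers, 5 had log2 fold changes below 0 and 1, *Sdc1*, was above, at 0.41. Summed astrocyte markers, of a cell type that makes chemokines, were 2120 to 8916 and 607 to 2434 CPM. Of these 6, 0 were called by edgeR, 4 were at an unadjusted p under 0.05 and 4 were called lower by DESeq2. All 6 had log2 fold changes below 0, from -3.18 for *Slc1a2* to -0.26 for *Gja1*. *Slc1a2* was the largest part of the sum in vehicle animals 1 and 3, at 3740 and 7382 CPM, whereas *Gfap* was lowest of its group in vehicle animal 3, at 294 CPM. Over all genes, 27.8% were at an unadjusted p under 0.05, 0.774% were called lower by edgeR and 17.5% were called by DESeq2. The part of these cell types in the values of the chemokines was not tested. In such bulk tissue, fewer cells of a type and less RNA per cell cannot be told apart. Each library is 1 animal, as far as the labels tell, and p-values measure the spread between these animals.

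No chemokine or receptor was called higher or lower in HPβCD infarcts by the quasi-likelihood test of edgeR at an adjusted p under 0.05. Of the 38 genes, 33 passed the filter on low counts, and 0 of the 33 were called, against 1.95% of all 14736 genes tested. The lowest fitted values were those of the monocyte attractant *Ccl12* (log2 fold change -1.77), the neutrophil attractant *Cxcl5* (-1.63) and *Cxcl14* (-1.94). The chemerin-binding receptor *Ccrl2*, at 0.71, was the only tested member whose groups did not overlap in CPM, against 16.8% of all genes tested. At an unadjusted p under 0.05, 5 of the 33 passed, against a background of 27.8% of all genes. By DESeq2, the tool the study used, 4 of the 37 members with an adjusted p were called, against 17.5% of all genes: *Ccl12*, *Cxcl5* and *Cxcl14* lower and *Ccrl2* higher. By limma-voom with quality weights 8 of 33 were called, against 21.9% of all genes, namely *Ccl4*, *Ccl8*, *Ccl9*, *Ccl12*, *Cxcl2*, *Cxcl5* and *Cxcl10* lower and *Ccrl2* higher. With vehicle animals 1 and 3 left out, edgeR called *Ccl9*, *Ccl12* and *Cxcl5* lower, against 1.34% of all genes under that setting, and without vehicle animal 3 alone it called *Ccl12* and *Cxcl5* lower, against 4.22%.

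The fitted log2 fold changes of the 33 tested members had a median of -0.13, beside -0.05 over all genes tested, and 20 of the 33 were below 0, against 54.1% of all genes. An absolute log2 fold change of at least 1 was fitted for 5 members, against 15.0% of all genes. Without vehicle animals 1 and 3, which left only vehicle animals 2 and 4, the median was -0.27, beside 0.01 over all genes, with 25 of 35 below 0. Vehicle animal 2 was the highest of its group for 18 of 31 members with a mean of at least 1 CPM. Without vehicle animal 2 alone the median was 0.02, beside -0.04 over all genes, with 16 of 33 below 0. By limma-voom with all animals the median was -0.33, beside -0.01, with 24 of 33 below 0. The 95% intervals of 28 members included 0, and those of 7 members lay wholly within -1 and 1. For the other tested members, a 2-fold difference in at least 1 direction lay inside the interval.

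**Figure D1:**
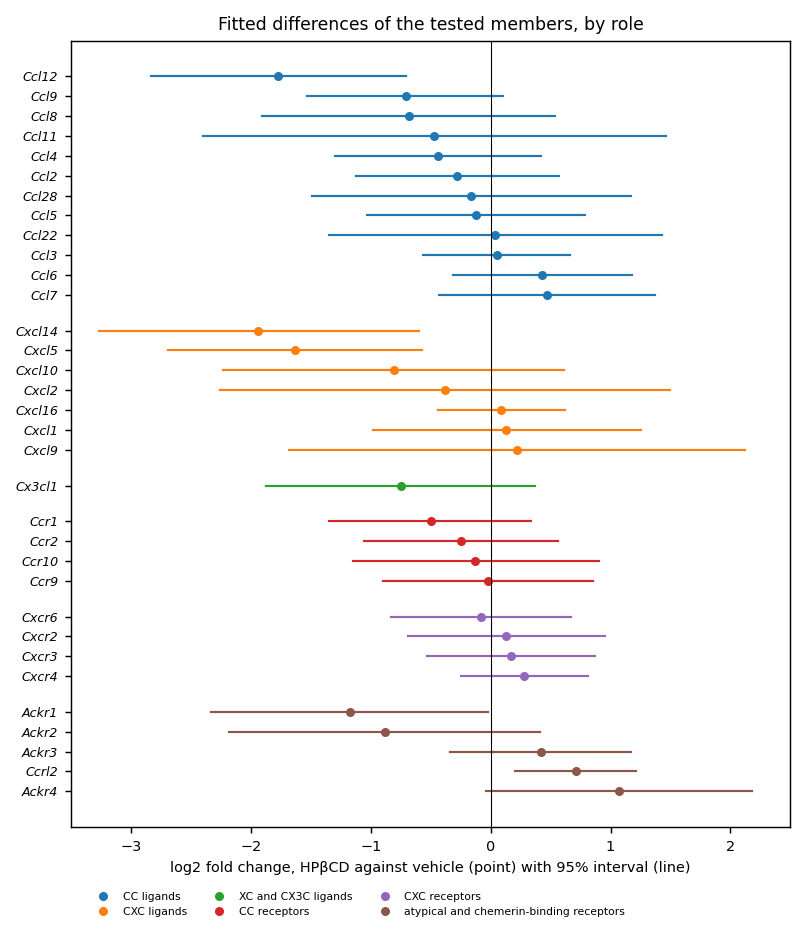
Fitted log2 fold change of each tested member, HPβCD against vehicle (horizontal axis; points, with 95% intervals from edgeR as lines), grouped by role in colors; n = 4 animals per group. The intervals of 28 of 33 genes cross 0, and those of *Ccl12*, *Cxcl5*, *Cxcl14*, *Ccrl2* and *Ackr1* do not.

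Levels per gene length, in TPM (counts scaled for exon length and library), differed widely among the members. *Ccl6*, a ligand of *Ccr1* made by myeloid cells, was the ligand with the highest level, at 389 ± 212 TPM in vehicle and 616 ± 139 TPM in HPβCD infarcts (SD, n = 4 each). It made up 26.2%, 45.6%, 30.1% and 50.1% of the summed ligand TPM in vehicle animals 1 to 4 and 49.0% to 56.9% in HPβCD infarcts, so that the low shares were those of vehicle animals 1 and 3. The membrane-bound *Cx3cl1*, a neuronal ligand that signals to microglia, followed at 102 ± 70.4 and 77.6 ± 15.2 TPM, and *Cxcl16*, a membrane-bound ligand and scavenger of oxidized lipoprotein, at 73.1 ± 28.3 and 91.5 ± 7.52 TPM (SD, n = 4 each). These levels of *Cx3cl1* and *Cxcl16* do not differ beyond their spread. Among receptors, *Cxcr4*, the receptor of *Cxcl12*, stood at 97.3 ± 37.2 TPM in vehicle and 140 ± 36.4 TPM in HPβCD infarcts. *Ccr2*, the receptor that brings monocytes out of bone marrow and into tissue, stood at 62.0 ± 33.2 and 61.5 ± 19.5 TPM, and *Ackr3*, which binds and removes *Cxcl12*, at 36.0 ± 17.1 and 56.0 ± 9.34 TPM. Summed over the 24 ligands, levels ran from 668 to 1357 TPM in vehicle and from 928 to 1661 TPM in HPβCD infarcts, and over the 14 receptors from 187 to 419 and from 302 to 480 TPM. The ranges of the groups overlapped in both sums.

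**Figure D2:**
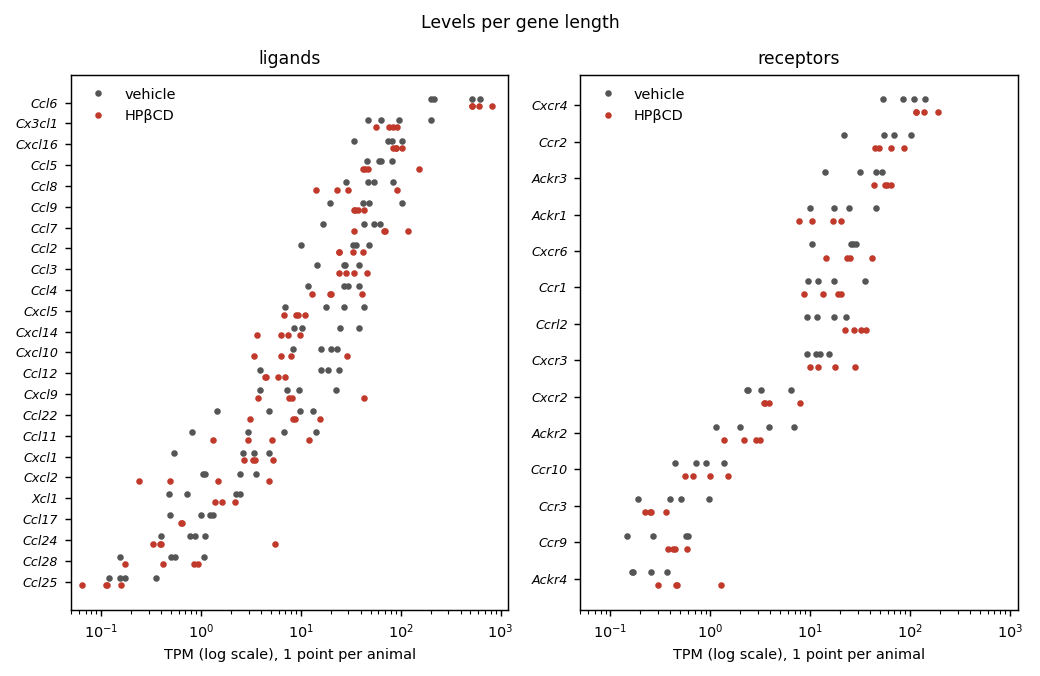
Level of all 38 genes in TPM (horizontal axis, log scale), 1 point per animal, ordered by the vehicle mean, with ligands on the left and receptors on the right; values of 0 are not drawn. *Ccl6* leads the ligands at means of 389 and 616 TPM, and *Cxcr4* leads the receptors at 97.3 and 140 TPM.

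The members of highest level had intervals that included 0. *Ccl6* measured 170, 419, 174 and 391 CPM in vehicle animals 1 to 4 and 315, 402, 484 and 358 CPM in HPβCD animals 1 to 4. Vehicle animals 1 and 3 were low and the groups overlapped. The log2 fold change was 0.43 (SE 0.33, 95% interval -0.31 to 1.18) and was -0.04 without those animals. *Cxcl16* measured 98.4, 116, 49.9 and 103 CPM in vehicle and 91.7, 99.4, 102 and 98.0 CPM in HPβCD infarcts, so that only vehicle animal 3 was far from the others. Its difference, 0.09 on the log2 scale (95% interval -0.44 to 0.62), lay within 2-fold in either direction, and 18.3% of its exon length faces the gene *Zmynd15* on the opposite strand. Whether the counting used strand is not given in the sources used here. *Cx3cl1* measured 164, 93.6, 386 and 77.1 CPM in vehicle and 122, 122, 99.9 and 86.3 CPM in HPβCD infarcts. Its highest values were in vehicle animals 3 and 1, the animals high in neuron markers, and its log2 fold change of -0.75 (95% interval -1.87 to 0.37) was 0.35 without them.

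The CC ligands of monocytes had fitted values on either side of 0. *Ccl2*, *Ccl7* and *Ccl12* attract monocytes through *Ccr2*, and *Ccl8* is a neighbor of them in a cluster on chromosome 11. *Ccl12* (ENSMUSG00000035352, chr11:82101845-82103400, plus strand, GRCm38) measured 5.63, 3.81, 1.02 and 3.60 CPM in vehicle and 0.804, 0.857, 1.23 and 1.22 CPM in HPβCD infarcts. Vehicle animals 1, 2 and 4 were above all HPβCD animals, whereas vehicle animal 3 was among them, so the groups overlapped. The log2 fold change was -1.77 (SE 0.47), with an adjusted p of 0.0715 by edgeR and 0.00726 by DESeq2. Without vehicle animals 1 and 3 it was -1.83, with an adjusted p of 0.0356 by edgeR. With an animal left out in turn, it ran from -2.07 without vehicle animal 3 to -1.44 without vehicle animal 1. The adjusted p by edgeR was 0.0192 and 0.188 in these fits, and the largest was 0.208, without HPβCD animal 2. The value rests on 317 reads in all vehicle and 73 in all HPβCD libraries. *Ccl2* had a log2 fold change of -0.28 (95% interval -1.12 to 0.57) and *Ccl7* of 0.47 (-0.43 to 1.37), and without vehicle animals 1 and 3 these were -0.60 and 0.16. *Ccr2* measured 163, 260, 71.4 and 194 CPM in vehicle and 148, 121, 196 and 116 CPM in HPβCD infarcts, which overlapped widely, and its log2 fold change was -0.25 (95% interval -1.06 to 0.56), and -0.63 without vehicle animals 1 and 3. Summed monocyte markers ran from 104 to 376 CPM in vehicle and from 89.4 to 218 CPM in HPβCD infarcts, with 0 of 5 called by edgeR, 2 at an unadjusted p under 0.05, 1 called lower by DESeq2, 4 below 0 and none at 0 in any animal, and their part in these values was not tested.

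The start regions of *Ccl12* and *Ccl8* are shown because these neighbors lie side by side in the cluster, and each has a TATA box letter string (TATAAA, in capitals) shortly before the start. The windows are chr11:82101745-82101844, plus strand, and chr11:82115085-82115184, plus strand, from RefSeq on GRCm38.p6, written 5′ to 3′.
*Ccl12*: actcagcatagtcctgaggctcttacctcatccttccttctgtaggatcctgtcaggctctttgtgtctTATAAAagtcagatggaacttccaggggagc
*Ccl8*: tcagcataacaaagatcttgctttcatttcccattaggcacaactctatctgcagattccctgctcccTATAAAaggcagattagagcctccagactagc
*Ccl8* differed by -0.68 on the log2 scale (SE 0.54, 95% interval -1.91 to 0.54). TATAAA stood on either strand in the 250 bases before the start in 9 of the 29 members with an entry and in 12.4% of 32851 promoters. The members without an entry were *Ccl2*, *Ccl4*, *Ccl5*, *Ccl7*, *Ccl11*, *Ccl24*, *Ccr10*, *Cxcl5* and *Cxcl16*.

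**Figure D3:**
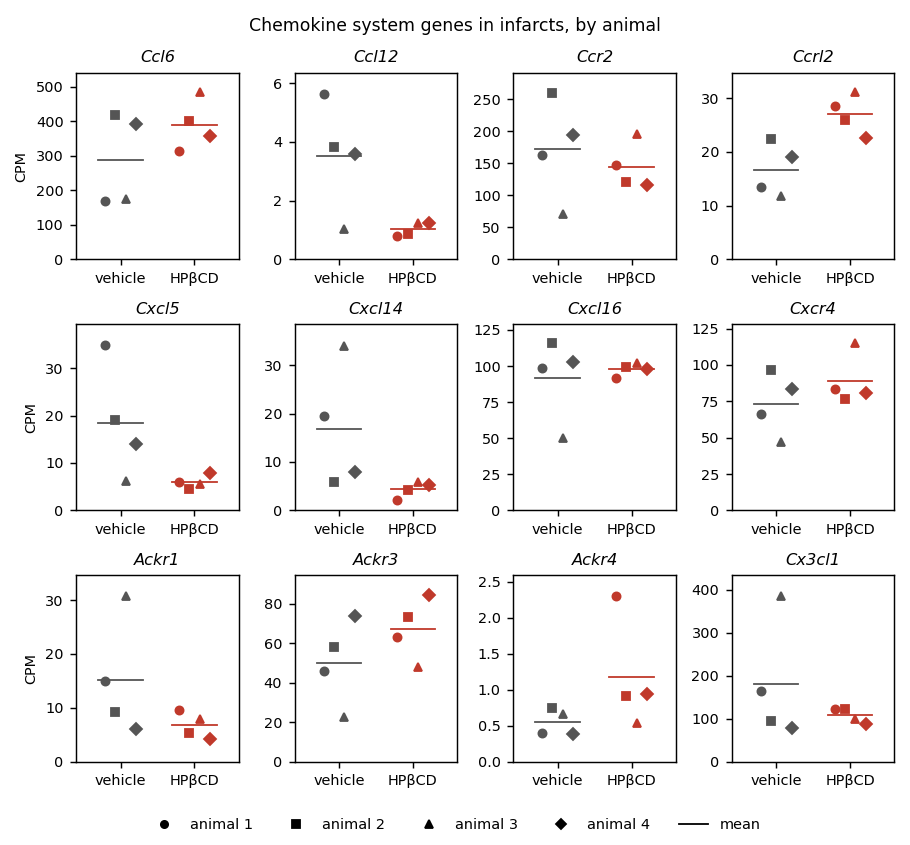
CPM of 12 named genes in each animal (vertical axes start at 0; symbols mark animals 1 to 4 of each group, lines mark group means). *Ccrl2* is the only gene shown whose groups do not overlap, and vehicle animal 3 is the highest for *Cxcl14*, *Ackr1* and *Cx3cl1*.

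The other CC ligands overlapped between groups. Of the ligands that act through *Ccr1*, *Ccl9* measured 55.2, 117, 28.4 and 62.0 CPM in vehicle and 38.5, 38, 43.5 and 40.6 CPM in HPβCD infarcts. Its log2 fold change was -0.71 (SE 0.36) with an adjusted p of 0.234 by edgeR, and was -1.14 with an adjusted p of 0.0443 without vehicle animals 1 and 3. Without vehicle animal 2, the highest at 117 CPM, it was -0.27 with an adjusted p of 0.519 by edgeR. *Ccl3*, a ligand of *Ccr1*, had a value of 0.05 (95% interval -0.56 to 0.66), *Ccl4*, an attractant of T lymphocytes and monocytes, of -0.44 (-1.30 to 0.42), and the receptor *Ccr1* of -0.50 (-1.35 to 0.34). Without vehicle animals 1 and 3 these 3 values were -0.14, -0.63 and -0.93. The eosinophil attractant *Ccl11* measured 0.421 to 6.50 CPM in vehicle and 0.555 to 4.42 CPM in HPβCD infarcts. Its log2 fold change of -0.47 (95% interval -2.40 to 1.46) was 0.37 without vehicle animal 4, -1.19 without HPβCD animal 1 and -1.18 without vehicle animals 1 and 3. The eosinophil attractant *Ccl24* and the eosinophil receptor *Ccr3* did not pass the filter, at 38 and 53 reads and at 70 and 22 reads over the vehicle and HPβCD libraries. Of the 53 reads of *Ccl24*, 44 were in HPβCD animal 3. Of the 70 reads of *Ccr3*, 42 were in vehicle animal 2, the largest library. Summed eosinophil markers ran from 17.6 to 44.5 CPM in vehicle and from 8.50 to 30.3 CPM in HPβCD infarcts, with *Epx* and *Ear6* at 0 in some animals. Of 4 eosinophil markers tested, *Prg2* was called lower by edgeR, 2 were at an unadjusted p under 0.05 and 3 were below 0. DESeq2 called 2 lower, *Prg2* and *Il5ra*. The part of these cells in the values was not tested. *Ccl22*, a dendritic cell ligand of *Ccr4*, had a value of 0.04 (-1.35 to 1.43), which was -0.55 without vehicle animals 1 and 3, and its chromosome 8 neighbor *Ccl17* did not pass, at 20 and 4 reads. Of the ligands and receptors of mucosal tissue, *Ccl28*, *Ccr9* and *Ccr10* had values of -0.16, -0.02 and -0.13 with all animals and of -0.57, -0.51 and -0.10 without vehicle animals 1 and 3, and *Ccl25* did not pass, at 54 and 21 reads. *Xcl1*, a lymphocyte ligand, did not pass either, at 31 and 17 reads. Of their exon length, 19.0% of *Ccr9* and 18.7% of *Xcl1* face other genes on the opposite strand. A further 2.6% of *Ccr9* overlaps *Gm17200* on the same strand, and the counts of *Ccr9* and *Xcl1* are uncertain.

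Of the CXC ligands of neutrophils, only *Cxcl5* had an interval that excluded 0. *Cxcl5* (ENSMUSG00000029371, chr5:90759360-90761624, plus strand, GRCm38), a ligand of *Cxcr2*, measured 34.8, 19.1, 6.19 and 13.9 CPM in vehicle and 5.91, 4.59, 5.52 and 7.93 CPM in HPβCD infarcts. Vehicle animals 1, 2 and 4 were above all HPβCD animals, and vehicle animal 3 lay among them. The log2 fold change of -1.63 (SE 0.47) had an adjusted p of 0.0814 by edgeR and of 0.00770 by DESeq2. Without vehicle animals 1 and 3 it was -1.45, with an adjusted p of 0.0340 by edgeR. With an animal left out in turn, it ran from -1.91 without vehicle animal 3 to -1.12 without vehicle animal 1. The adjusted p by edgeR was 0.0246 and 0.191 in these fits, and the largest was 0.222, without HPβCD animal 2. The 2 other ligands of *Cxcr2* among the members, *Cxcl1* and *Cxcl2*, had values of 0.13 (95% interval -0.98 to 1.25) and -0.38 (-2.26 to 1.50), and *Cxcr2* itself had a value of 0.13 (-0.69 to 0.95). *Cxcl2* measured 3.83 CPM in HPβCD animal 4 and 0.184 to 1.02 CPM in the other HPβCD animals, beside 0.958 to 2.75 CPM in vehicle. Its value was -1.73 (adjusted p 0.151 by edgeR) without HPβCD animal 4 and -2.24 (adjusted p 0.0344) by limma-voom. Of all 75-base windows of *Cxcl2* transcript models, 4.6% are shared with *Cxcl3*. Summed neutrophil markers ran from 63.6 to 91.2 CPM in vehicle and from 76.6 to 160 CPM in HPβCD infarcts, with *Ly6g*, *Ngp* and *Camp* at 0 in some animals and 0 of 5 tested markers called by edgeR, 1 at an unadjusted p under 0.05 and 1 called higher by DESeq2, and their part was not tested.

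*Cxcl14*, a ligand expressed without inflammation in many epithelia and in neurons, measured 19.6, 5.84, 34.0 and 7.95 CPM in vehicle and 2.24, 4.22, 5.95 and 5.21 CPM in HPβCD infarcts. The highest values were in vehicle animals 3 and 1, and vehicle animal 2 overlapped HPβCD animal 3. The log2 fold change was -1.94 (SE 0.58), with an adjusted p of 0.0890 by edgeR and 0.00660 by DESeq2. It was -0.63 with an adjusted p of 0.327 by edgeR without vehicle animals 1 and 3, the animals in which neuron markers summed to 951 and 6026 CPM.

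The values of the interferon-induced ligands moved with single animals. *Cxcl9* measured 29.5, 10.8, 5.65 and 9.13 CPM in vehicle and 8.32, 8.33, 43.2 and 4.33 CPM in HPβCD infarcts. *Cxcl10* measured 22.8, 16.9, 9.02 and 15.1 CPM in vehicle and 2.58, 6.55, 21.9 and 5.49 CPM in HPβCD infarcts. HPβCD animal 3 was the highest of its group for both, and the other 3 HPβCD animals were below all vehicle animals for *Cxcl10*. The log2 fold change of *Cxcl10* was -0.81 (95% interval -2.23 to 0.61) with all animals and -1.71, with an adjusted p of 0.0987 by edgeR, without HPβCD animal 3. That of *Cxcl9* was 0.22 (-1.68 to 2.12) and turned to -0.98 (adjusted p 0.351 by edgeR) without that animal. *Cxcl9* also moved with vehicle animal 1, the highest of the vehicle group, to 0.92 without it and to 0.70 without vehicle animals 1 and 3. Their receptor *Cxcr3*, on activated T lymphocytes, measured 11.6, 8.19, 9.62 and 6.77 CPM in vehicle and 10.3, 7.59, 16.3 and 6.66 CPM in HPβCD infarcts.

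The same HPβCD animal was high for further ligands. *Ccl5*, made by T lymphocytes and natural killer cells, measured 26.6, 29.4, 27.8 and 18.7 CPM in vehicle and 15.3, 14.9, 48.1 and 16.2 CPM in HPβCD infarcts, and *Ccl8* measured 11.9, 16.2, 7.04 and 10.1 CPM and 2.47, 4.29, 15.7 and 5.88 CPM. Without HPβCD animal 3 their log2 fold changes moved from -0.12 to -0.73 and from -0.68 to -1.43 (adjusted p of 0.108 and 0.111 by edgeR). Among 31 members with a mean of at least 1 CPM, HPβCD animal 3 was the highest of its group for 24. Summed T lymphocyte markers were 244 CPM in that animal and 96.5 to 138 CPM in the other HPβCD animals, and 115 to 173 CPM in vehicle. That animal was also the highest of its group in summed markers of other cells. For neutrophils, microglia and all leukocytes it had 160, 980 and 2338 CPM, against 76.6 to 98.0, 625 to 859 and 1536 to 1839 CPM. Vehicle animals were lower there, at 63.6 to 91.2, 403 to 854 and 975 to 1770 CPM. For monocytes, astrocytes and oligodendrocytes it had 218, 2434 and 1928 CPM, against 89.4 to 111, 607 to 1367 and 158 to 925 CPM. It lay inside the vehicle ranges of 104 to 376, 2120 to 8916 and 1508 to 4856 CPM for these. *Irf1*, a factor induced by interferon, measured 84.3 CPM in HPβCD animal 3 and 34.9 to 50.8 CPM in the other HPβCD animals. The part of all these in the chemokine values was not tested. In the vehicle group, animal 3 was the lowest for 22 of the 31 members and animal 2 the highest for 18. *Cxcr6*, the receptor of *Cxcl16*, measured 21.6, 21.1, 9.68 and 21.7 CPM in vehicle and 16.3, 16.4, 26.8 and 10.8 CPM in HPβCD infarcts.

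**Figure D4:**
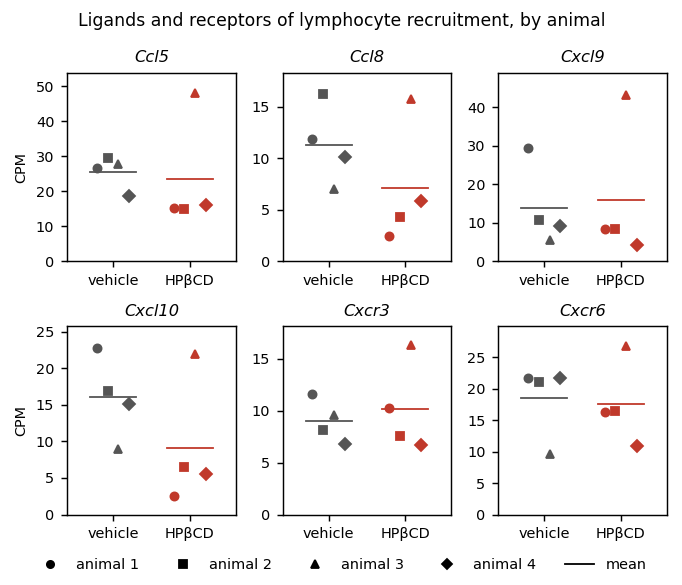
CPM of *Ccl5*, *Ccl8*, *Cxcl9*, *Cxcl10*, *Cxcr3* and *Cxcr6* in each animal (vertical axes start at 0; symbols mark animals 1 to 4 of each group, lines mark group means). HPβCD animal 3 is the highest of its group in all 6 panels, as for *Ccl5* at 48.1 CPM.

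The start regions of *Cxcl9* and *Cxcl10* are shown because both ligands are induced genes. In capitals are the interferon-stimulated response element (ISRE), taken as GAAA, any 2 bases and GAAA, and the kappaB string, taken as GGG, any 5 bases and CC. Both were searched on both strands, and overlapping matches are joined. The windows are chr5:92328080-92328299, minus strand, and chr5:92348890-92349109, minus strand, from RefSeq on GRCm38.p6, written 5′ to 3′.
*Cxcl9*: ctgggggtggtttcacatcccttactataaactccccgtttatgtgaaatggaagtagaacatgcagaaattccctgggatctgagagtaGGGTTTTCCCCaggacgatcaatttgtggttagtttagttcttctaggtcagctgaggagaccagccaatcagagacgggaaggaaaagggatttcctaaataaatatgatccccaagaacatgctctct
*Cxcl10*: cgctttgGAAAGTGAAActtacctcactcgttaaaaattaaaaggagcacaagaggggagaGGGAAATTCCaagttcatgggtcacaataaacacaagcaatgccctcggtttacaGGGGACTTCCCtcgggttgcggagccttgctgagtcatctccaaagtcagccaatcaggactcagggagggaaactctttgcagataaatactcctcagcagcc
The window of *Cxcl10* holds both strings and that of *Cxcl9* only the kappaB string. In the 250 bases before the start, the ISRE string stood in 2 of 29 members, *Cxcl10* and *Cxcl14*, and in 2.98% of 32851 promoters, and the kappaB string stood in 15 of 29 members and in 45.8% of promoters. TTC and GAA with 4 bases between, the string bound by STAT6, stood in *Ccl17* and in 5.85% of promoters. TTC and GAA with 3 bases between, the interferon gamma-activated site (GAS), stood in 2 of 29 members, *Ccl17* and *Cxcl14*, and in 7.02% of promoters. Only these exact strings were searched, so the absence of a string does not show that *Cxcl9* lacks an interferon element.

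**Figure D5:**
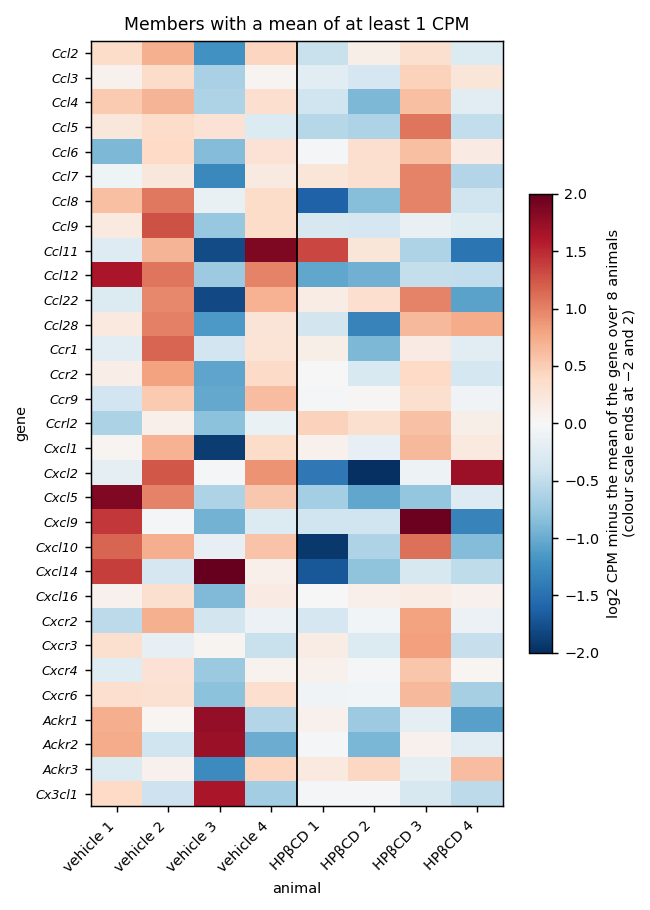
log2 CPM of the 31 members with a mean of at least 1 CPM (rows) in the 8 animals (columns), each minus the mean of the gene over all 8; red is higher, blue is lower, and the color scale ends at -2 and 2. HPβCD animal 3 is the highest of its group for 24 of the 31 genes, and vehicle animal 3 is the lowest of its group for 22.

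The receptors of *Cxcl12* were not called. *Cxcr4* measured 66.5, 96.3, 47.0 and 83.1 CPM in vehicle and 83.2, 76.3, 115 and 80.9 CPM in HPβCD infarcts, and *Ackr3* measured 45.7, 58.2, 22.7 and 73.9 CPM and 63.0, 73.1, 47.9 and 84.3 CPM. Both overlapped between groups. The log2 fold changes were 0.28 (95% interval -0.25 to 0.81) and 0.42 (-0.34 to 1.17), and 0.00 and 0.04 without vehicle animals 1 and 3. *Cxcl12* itself, from a list of other genes of the chemokine system, measured 640, 1115, 655 and 1033 CPM in vehicle and 1951, 2050, 1568 and 1985 CPM in HPβCD infarcts. It was called higher (log2 fold change 1.13, SE 0.23, adjusted p 0.0499 by edgeR), beside the summed fibroblast markers, a cell type that makes it, of which *Col1a1* and *Col1a2* were called higher and whose part was not tested.

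The atypical and chemerin-binding receptors differed among themselves. *Ccrl2* (ENSMUSG00000043953, chr9:111054486-111057519, minus strand, GRCm38), which binds chemerin without signalling, measured 13.4, 22.3, 11.7 and 19.0 CPM in vehicle and 28.6, 26.0, 31.1 and 22.6 CPM in HPβCD infarcts. Every HPβCD animal was above every vehicle animal, by 22.6 against 22.3 CPM at the closest. The log2 fold change was 0.71 (SE 0.22), with an adjusted p of 0.0948 by edgeR and 0.0432 by DESeq2. It was 0.41 with an adjusted p of 0.222 by edgeR without vehicle animals 1 and 3. The chemerin receptor that does signal, *Cmklr1*, had a log2 fold change of 0.79 (adjusted p 0.0568 by edgeR). *Ackr4*, a scavenger of *Ccl19*, *Ccl21* and *Ccl25*, measured 0.394, 0.745, 0.661 and 0.376 CPM in vehicle and 2.30, 0.918, 0.536 and 0.943 CPM in HPβCD infarcts, from 51 and 82 reads. The groups overlapped, and the log2 fold change was 1.07 (SE 0.49, adjusted p 0.192 by edgeR).

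*Ackr1*, the Duffy antigen of venules and red cells, measured 14.9, 9.19, 30.7 and 5.96 CPM in vehicle and 9.59, 5.39, 7.83 and 4.16 CPM in HPβCD infarcts. Its log2 fold change was -1.17 (SE 0.51, adjusted p 0.175 by edgeR) and -0.16 without vehicle animals 1 and 3. Of its exon length, 25.7% overlaps the neuronal gene *Cadm3* on the same strand, and *Cadm3* measured 64.4 and 291 CPM in vehicle animals 1 and 3 and 3.38 to 9.40 CPM in the other 6. How reads over both genes were counted is not given in the sources used here, and the part of *Cadm3* in these values was not tested. The value of *Ackr1* is therefore uncertain. *Ackr2*, a scavenger of inflammatory CC ligands, had a log2 fold change of -0.88 (95% interval -2.18 to 0.41), which was 0.46 without vehicle animals 1 and 3.

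The wider chemokine system was read from 3 lists. Of 24 other ligands and receptors, 17 were tested and 2 were called higher, *Cxcl12* and *Ccl21a* (log2 fold change 2.45, SE 0.40, adjusted p 0.0444 by edgeR), and 0 lower, beside 1.17% and 0.774% of all genes. Both calls were lost without vehicle animal 1 or 4 or HPβCD animal 2 or 3, where edgeR called 0 of all genes. At an unadjusted p under 0.05, 11 of the 17 passed, beside 27.8% of all genes. DESeq2 called 3 higher (these and *Cmklr1*) and 5 lower of 19, beside 17.5% of all genes in either direction. The 5 were *Cxcl13* and its receptor *Cxcr5*, which guide B lymphocytes, *Ccr6*, *Cx3cr1*, the receptor of *Cx3cl1*, and the platelet chemokine *Pf4*. *Ccl21a*, a ligand that guides lymphocytes and dendritic cells through *Ccr7*, has near-identical copies and its counts are uncertain. The median of the 17 was -0.88, beside -0.05 over all genes. Of 24 genes of receptor signalling, all were tested and 0 were called, with 7 at an unadjusted p under 0.05 and 1 called by DESeq2, beside 27.8% and 17.5% of all genes. The smallest p-values there were those of *Rgs1*, which ends G protein signals (-1.46, adjusted p 0.0833 by edgeR), *Plcb2*, a phospholipase (0.56, 0.102) and *Grk2*, a receptor kinase (-0.65, 0.119). Of 22 cytokines and factors that induce chemokines, 17 were tested and 0 called, with 4 at an unadjusted p under 0.05 and 3 of 20 called by DESeq2, beside the same 27.8% and 17.5%. The smallest p-values were those of *Stat6*, which carries signals of type 2 cytokines (0.76, adjusted p 0.0643 by edgeR), the cytokine *Il1a* (0.94, 0.0658) and the interferon factor *Irf7* (-1.88, 0.0744).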

How the data were processed

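Polyadenylated RNA was sequenced as strand-specific paired-end libraries. The authors demultiplexed reads with bcl2fastq 2.19, trimmed them with Trimmomatic 0.32, aligned them to GRCm38 with STAR 2.5.2b and counted them per gene with htseq-count. The strand option and annotation release are not given in the sources used here. The deposited values are raw counts per gene, 1 table per animal. Lines for reads assigned to no gene (26.6% to 36.6%) were left out, and genes with near-identical copies are undercounted.

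Groups came from the labels. Any 2 libraries differed beyond sampling noise (chi-square per degree of freedom at least 18.9). Counts of all genes were tested with edgeR 4.0.16 in R 4.3.3 (TMM, filterByExpr, robust quasi-likelihood F test, Benjamini-Hochberg over 14736 genes, threshold 0.05), with DESeq2 1.42.0 and limma 3.58.1 as alternatives. CPM used TMM-scaled totals, and TPM the exon length of GENCODE M21. Intervals are 95%. On simulated data made from these libraries, 200 of 14736 genes were changed and all others had equal group means. There edgeR recovered 81% of 4-fold changes and 0% of 2-fold changes. DESeq2 recovered 90.5% and 21.5%, and 20.6% and 37.7% of its calls were false, more than its threshold allows. Such shares depend on how many genes change, so they do not carry over directly to the real counts.

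The genes and lists were chosen with earlier results of these data known. Values of every animal are given for members with non-overlapping groups or an absolute log2 fold change of at least 1 and for the 3 ligands and 3 receptors of highest TPM; of each pathway list the 3 genes with the smallest p-value are named. *Ccl5*, *Ccl8*, *Ccl9*, *Ccl11*, *Cxcl2*, *Cxcl9*, *Cxcl10*, *Cxcr3*, *Cxcr6*, *Irf1*, *Cadm3*, *Cxcl13*, *Cxcr5*, *Ccr6*, *Cx3cr1* and *Pf4* were named after their values were seen.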

Additional observations from a re-analysis of the deposited data

Results flagged for a closer look

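In 66 groups of 4 animals (33 genes in 2 groups), 1 animal stood far from the other 3 by Dixon's criterion in 2, and chance alone gives about 1 in 20, or 3.30. *Ccl5* was at 48.1 CPM in HPβCD animal 3, while the other HPβCD animals lay between 14.9 and 16.2 CPM. *Cxcr6* was at 9.68 CPM in vehicle animal 3, while the other vehicle animals lay between 21.1 and 21.7 CPM.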

How the results depend on the processing

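The number of members called moved with the test and with the vehicle animals. DESeq2 called 1 higher and 3 lower, limma-voom called 1 higher and 7 lower, and edgeR without vehicle animals 1 and 3 called 3 lower, beside 0 in each direction with all animals. With each animal left out in turn, the number called lower ran from 0 to 2 and the number called higher stayed at 0; the 2, *Ccl12* and *Cxcl5*, were called without vehicle animal 3. The median of the members ran from -0.37 (without HPβCD animal 3) to 0.02 (without vehicle animal 2) with an animal left out. Among the named members, the direction turned for *Cxcl16* (-0.08 by limma-voom, -0.01 with library totals alone, -0.11 to 0.22 with an animal left out in turn, the lowest without vehicle animal 3, -0.15 without vehicle animals 1 and 3), *Cx3cl1* (0.23 by limma-voom, 0.35 without vehicle animals 1 and 3), *Ccr2* (-0.50 to 0.02 with an animal left out in turn, the highest without vehicle animal 2) and *Ccl6* (-0.04 without vehicle animals 1 and 3), and the cause was not tested. Of 215 results for the 12 named members under 18 alternatives, 196 kept direction and side of the threshold, 11 passed it and 8 turned. Over all genes, 287 were called, and 2911 by DESeq2, 3232 by limma-voom, 98 without robust estimation, 11 with library totals alone and 0 to 629 with an animal left out. Animal numbers were not taken to pair the animals (correlations of deviations -0.257, 0.244, 0.329 and 0.097, with the own number the best match for 2 of 4), and with the replicate block 0 members and 9 genes were called. Members with few reads have wide intervals, and 4 animals per group limit the precision of all.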
